A study of Mus musculus with 12 samples.

Results

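The genes described here are 9 targets of the transcription factor p53 (Trp53 in the mouse), picked by symbol from a table of 46078 genes: Cdkn1a, Mdm2, Plk2, Sesn1, Ccng1, Bax, Trp53inp1, Btg2 and Phlda3. All 9 symbols were found, 8 of the genes had at least 1 read, and 7 were expressed highly enough to be among the 10981 genes tested. The RNA came from BV2, an immortalised mouse microglial line, in 4 groups of 3 libraries. The groups were Atg5 knockout (KO) cells with 1 U/mL interferon gamma (IFNγ) for 24 h, Atg5 KO cells in medium alone, wild type (WT) cells with the same dose of IFNγ for 24 h, and WT cells in medium alone. Atg5 is needed to form autophagosomes, and IFNγ is a cytokine that activates macrophages and microglia. All groups come from a single cell line, how many KO clones were used is not given in the sources used here, and neither is the p53 status of the line.

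p53 is kept scarce in unstressed cells by the ubiquitin ligase Mdm2 and accumulates after DNA damage and other stresses. It then switches on genes that halt the cell cycle, limit oxidative and metabolic stress or start apoptosis, and also Mdm2 itself, which closes a feedback loop. Many of these genes answer to other inputs as well. Promoters of interferon-induced genes often hold a gamma-activated site (GAS) or an interferon-stimulated response element (ISRE).

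Promoter windows, which run from 250 bases before to 50 bases after an annotated start, were taken from RefSeq for build GRCm38.p6, and 8 of the 9 genes had at least 1, for 10 windows in all. Both strands were searched for a GAS (TTCNNNGAA), for an ISRE core (GAAANNGAA) and for the consensus p53 half-site, a 10-base motif. The motifs may overlap one another. The half-site was present in 5 of the 10 windows, those of Cdkn1a (the first of 2 starts), Mdm2, Sesn1 (the second of 2 starts), Ccng1 and Bax. The share among all 32851 RefSeq promoter windows of the same length was 8.36%. The ISRE core was in the Plk2 window, against 8.56% of all windows, and the GAS was in none of the 10, against 8.3% of all windows. The windows of the 4 genes that differed between IFNγ and medium are shown because the results turn on these genes, with motif matches in capitals. They are Cdkn1a at chr17:29090729-29091028 (plus strand), Mdm2 at chr10:117710709-117711008 (minus strand), Plk2 at chr13:110394794-110395093 (plus strand) and Sesn1 at chr10:41887189-41887488 (plus strand).
Cdkn1a: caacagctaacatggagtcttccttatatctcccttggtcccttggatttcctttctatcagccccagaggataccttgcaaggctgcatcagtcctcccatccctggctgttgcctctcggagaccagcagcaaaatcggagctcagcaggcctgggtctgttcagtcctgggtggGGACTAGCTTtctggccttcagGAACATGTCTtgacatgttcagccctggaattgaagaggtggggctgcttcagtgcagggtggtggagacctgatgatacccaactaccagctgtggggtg
Mdm2: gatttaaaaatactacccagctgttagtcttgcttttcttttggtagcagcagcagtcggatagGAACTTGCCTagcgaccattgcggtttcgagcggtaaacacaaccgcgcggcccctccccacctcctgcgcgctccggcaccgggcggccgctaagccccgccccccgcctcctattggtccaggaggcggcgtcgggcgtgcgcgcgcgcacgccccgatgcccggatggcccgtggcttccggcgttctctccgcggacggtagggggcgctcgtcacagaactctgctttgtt
Plk2: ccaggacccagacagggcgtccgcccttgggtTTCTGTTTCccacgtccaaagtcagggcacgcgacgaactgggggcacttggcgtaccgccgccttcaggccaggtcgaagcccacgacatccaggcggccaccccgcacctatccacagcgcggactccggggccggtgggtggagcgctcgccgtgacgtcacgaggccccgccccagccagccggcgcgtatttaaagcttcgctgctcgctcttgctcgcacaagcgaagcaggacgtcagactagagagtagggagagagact
Sesn1: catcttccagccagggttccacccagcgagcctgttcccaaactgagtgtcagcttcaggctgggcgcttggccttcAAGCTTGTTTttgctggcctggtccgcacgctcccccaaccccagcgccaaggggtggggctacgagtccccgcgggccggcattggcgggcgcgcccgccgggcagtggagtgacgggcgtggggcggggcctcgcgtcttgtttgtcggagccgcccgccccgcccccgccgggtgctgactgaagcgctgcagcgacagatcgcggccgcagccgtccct
For Ccng1 and Bax, 30 bases around the half-site are shown to set the capitals of these genes beside those above.
Ccng1: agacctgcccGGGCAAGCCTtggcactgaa
Bax: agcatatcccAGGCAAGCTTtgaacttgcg
In the Cdkn1a window the half-sites begin 73 and 51 bases before the start, and in the Mdm2 window the half-site begins 186 bases before it. The Sesn1 and Ccng1 half-sites begin 173 and 185 bases before the start, the Bax half-site 201 bases, and the Plk2 ISRE core 218 bases. These are matches of letters in a short window, and binding of any factor was not measured here. The windows of the other starts of Cdkn1a (chr17:29093519-29093818) and Sesn1 (chr10:41810324-41810623) held no match and are not shown. Which start the transcripts came from was not tested.

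Levels below are log2 of the normalised read count plus 1, as deposited by the authors, and a difference of 1 on this scale is a change of 2-fold at high counts. A gene is called changed where the limma adjusted p, taken over all 10981 genes tested, is under 0.05. Read totals ran from 3329849 to 7330435 per library. The 13 microglia and macrophage markers examined were all expressed, although the homeostatic microglial genes P2ry12, Tmem119 and Cx3cr1 had only 87, 62 and 207 reads in the 12 libraries together. Of 40 markers of 8 other cell types 22 had no read, and the endothelial markers Kdr and Vwf passed the expression filter. The summed level of the endothelial markers ranged over 268.9 to 410.4 normalised reads in KO cells with IFNγ, 157.3 to 184.8 in KO cells in medium, 499.1 to 867.6 in WT cells with IFNγ and 332.1 to 610.4 in WT cells in medium; the part of these markers in the results was not tested. Replicate C of the IFNγ-treated WT cells stood apart, at 22.2 on the first principal component (40.3% of the variance) against 55.3 and 56.3 for replicates A and B. Its Gbp2, an IFNγ-induced GTPase, was at 10.18 against 12.52 and 12.70. Results in WT cells are therefore given with and without this library where they rest on it. Replicate C of the IFNγ-treated KO cells was also the lowest of its group, at 29.1 on that component against 41.2 and 44.0. Its Gbp2 was at 11.93 against 13.05 and 12.72. Alternatives without both IFNγ libraries of letter C leave out these libraries of WT and KO cells together. The Atg5 transcript was at 8.74 to 8.83 in KO cells with IFNγ, 8.68 to 9.02 in KO cells in medium, 8.86 to 8.96 in WT cells with IFNγ and 8.35 to 8.57 in WT cells in medium. Since the reads come from 3′ ends and may miss the edited bases, this level does not check the genotype labels. In bulk RNA of this kind, fewer cells of a type and less RNA per cell cannot be told apart.

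With IFNγ, Cdkn1a, Mdm2 and Plk2 rose and Sesn1 fell, in KO cells and in WT cells alike. In KO cells 3 of the 7 tested genes were called higher and 1 lower, against 4.67% and 2.69% of all genes tested. In WT cells the counts were again 3 and 1, against 4.53% and 2.12% of all genes tested. The median log2 difference of the 7 genes was 0.34 in KO cells and 0.33 in WT cells, against 0.01 and -0.02 for all genes tested. All 6 treated libraries lay above all 6 medium libraries for 4 of the 7 genes (the 3 that rose and Ccng1), against 4.6% of all genes tested, and below them for 1 (Sesn1), against 2.5%. The genes and the lists below were chosen with earlier results of these data known. The shares of all genes tested are thus given for scale and do not test for an excess. Ccng1, Bax and Btg2 were not called in either genotype, Trp53inp1 was too low to be tested and Phlda3 had no read.

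**Figure D1:**
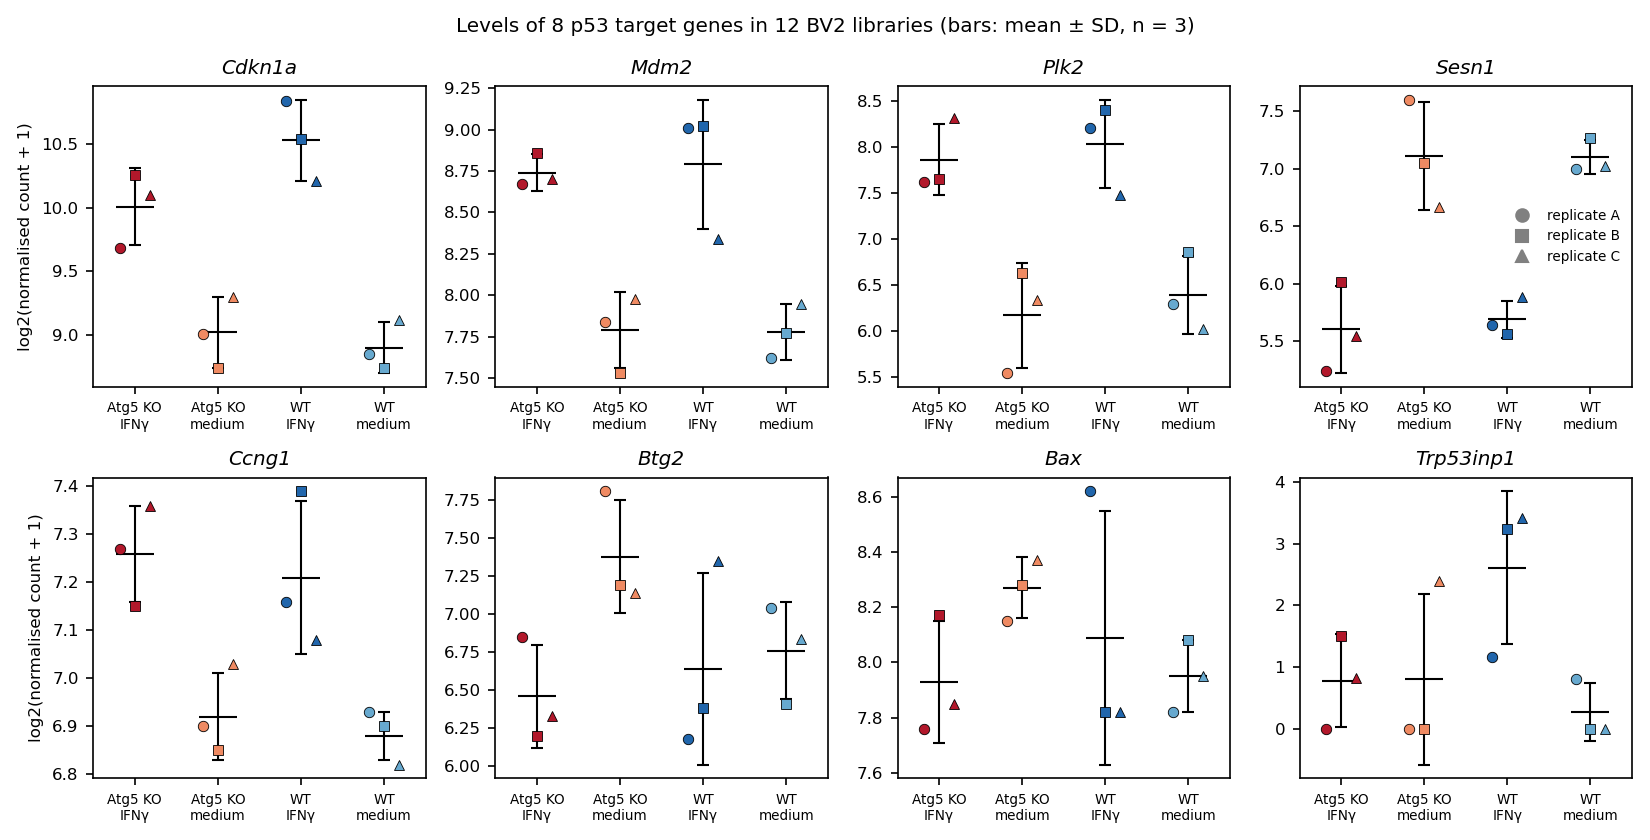
Level of 8 of the 9 genes in each library, as log2 of the normalised count plus 1 on the vertical axis, with the 4 groups on the horizontal axis, the mean as a horizontal line and the SD of 3 libraries as error bars (the vertical scales differ and do not start at 0). Cdkn1a, Mdm2, Plk2 and Ccng1 are higher, and Sesn1 lower, in all IFNγ libraries than in all medium libraries of both genotypes; Phlda3, with 0 reads, is not drawn.

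Among the genes that restrain the cell cycle, Cdkn1a encodes p21, an inhibitor of cyclin-dependent kinases and the best known effector of arrest by p53. The gene (ENSMUSG00000023067) lies at chr17:29090976-29100727 on the plus strand in GRCm38, by the GENCODE annotation. Replicates A, B and C stood at 9.68, 10.26 and 10.10 in KO cells with IFNγ and at 9.01, 8.74 and 9.30 in KO cells in medium. In WT cells they stood at 10.84, 10.54 and 10.21 with IFNγ and at 8.85, 8.74 and 9.12 in medium. Every treated library lay above every medium library. The means were 1046 normalised reads in KO cells with IFNγ and 523.2 in medium, and 1499 in WT cells with IFNγ and 481.1 in medium. The log2 difference was 1.00 in KO cells (95% interval 0.55 to 1.44, SE 0.21, limma adjusted p = 0.00484) and 1.62 in WT cells (1.18 to 2.07, SE 0.21, adjusted p = 2.79e-05). Without replicate C of the treated WT cells it was 1.78 in WT cells.

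Ccng1 encodes cyclin G1, which in spite of its name is not a motor of the cell cycle and is known for recruiting phosphatase 2A to Mdm2. It lies at chr11:40748552-40755311 on the minus strand. In KO cells it stood at 7.27, 7.15 and 7.36 with IFNγ and at 6.90, 6.85 and 7.03 in medium. WT cells had 7.16, 7.39 and 7.08 with IFNγ and 6.93, 6.90 and 6.82 in medium. Treated and medium ranges did not overlap in either genotype, yet the differences of 0.34 in KO cells (95% interval -0.10 to 0.78, limma adjusted p = 0.424) and 0.33 in WT cells (-0.11 to 0.77, adjusted p = 0.416) were not called.

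Btg2 encodes an antiproliferative adaptor of the messenger RNA deadenylation machinery, and lies at chr1:134075170-134079120 on the minus strand. KO cells had 6.85, 6.20 and 6.33 with IFNγ and 7.81, 7.19 and 7.14 in medium, with no overlap, as for 24.4% of all genes tested in KO cells. WT cells had 6.18, 6.38 and 7.35 with IFNγ and 7.04, 6.41 and 6.84 in medium, and the groups overlapped. The difference was -0.92 in KO cells (95% interval -1.58 to -0.27, SE 0.31, limma adjusted p = 0.0835) and -0.13 in WT cells (-0.78 to 0.53, SE 0.31, adjusted p = 0.877). Neither was called. In KO cells, voom on the recovered reads did call it, at -0.97 with an adjusted p of 0.0434. Among WT cells the difference was -0.48 without replicate C of the treated cells, and leaving out single libraries gave -0.48 to 0.10.

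Mdm2, the ubiquitin ligase that marks p53 for degradation and is itself induced by p53, lies at chr10:117688875-117710758 on the minus strand (ENSMUSG00000020184). KO cells had 8.67, 8.86 and 8.70 with IFNγ and 7.84, 7.53 and 7.98 in medium. WT cells had 9.01, 9.02 and 8.34 with IFNγ and 7.62, 7.77 and 7.95 in medium. All treated libraries lay above all medium libraries, with WT replicate C the lowest of the treated ones. Mdm2 rose by 0.96 in KO cells (1.94-fold, 95% interval of the log2 difference 0.51 to 1.40, limma adjusted p = 0.00745) and by 1.01 in WT cells (2.01-fold, 0.56 to 1.46, adjusted p = 0.00519).

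Of the stress-response genes, Plk2 encodes a polo-like kinase that works in centriole duplication and at synapses, and lies at chr13:110395046-110400844 on the plus strand (ENSMUSG00000021701). In KO cells it stood at 7.62, 7.65 and 8.31 with IFNγ and at 5.54, 6.63 and 6.33 in medium. In WT cells it stood at 8.20, 8.40 and 7.48 with IFNγ and at 6.29, 6.86 and 6.02 in medium. The treated and medium libraries did not overlap, and the spread within groups was wide, with SDs of 0.39 to 0.57. Plk2 rose by 1.69 in KO cells (3.23-fold, 95% interval of the log2 difference 1.03 to 2.36, limma adjusted p = 0.0017) and by 1.64 in WT cells (3.11-fold, 0.97 to 2.30, adjusted p = 0.00255).

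Sesn1 went the other way. It encodes sestrin 1, a stress-induced protein that restrains the growth kinase complex mTORC1, and lies at chr10:41809935-41908424 on the plus strand (ENSMUSG00000038332). In KO cells it stood at 5.24, 6.01 and 5.54 with IFNγ and at 7.60, 7.05 and 6.67 in medium. In WT cells it stood at 5.64, 5.56 and 5.88 with IFNγ and at 7, 7.27 and 7.02 in medium. Every treated library lay below every medium library. Sesn1 fell by 1.51 in KO cells (to 0.351 of the level in medium, 95% interval of the log2 difference -2.11 to -0.91, limma adjusted p = 0.00179) and by 1.40 in WT cells (to 0.378, -2 to -0.80, adjusted p = 0.00384).

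Of the apoptotic genes, Bax encodes a pore-forming BCL-2 family protein of the mitochondrial outer membrane, and lies at chr7:45461697-45466898 on the minus strand. KO cells had 7.76, 8.17 and 7.85 with IFNγ and 8.15, 8.28 and 8.37 in medium. WT cells had 8.62, 7.82 and 7.82 with IFNγ and 7.82, 8.08 and 7.95 in medium. The groups overlapped in both genotypes. The differences of -0.34 in KO cells (95% interval -0.81 to 0.13, limma adjusted p = 0.457) and 0.14 in WT cells (-0.33 to 0.61, adjusted p = 0.791) were not called, and in WT cells it was -0.13 without replicate A of the treated cells.

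Trp53inp1, a nuclear protein known to act with p53 and in autophagy, lies at chr4:11156431-11174379 on the plus strand and did not pass the filter on low values. It had 0, 2 and 1 reads in KO cells with IFNγ and 0, 0 and 4 in KO cells in medium. It had 1, 8 and 8 reads in WT cells with IFNγ and 1, 0 and 0 in WT cells in medium. Most of its reads thus came from a pair of treated WT libraries. The ratio of normalised reads, IFNγ over medium, was 0.666 in KO cells (95% exact interval 0.0976 to 3.94) and 23.8 in WT cells (3.74 to 997), intervals that cover counting error alone and not the spread between libraries. With no filter, limma over 16924 genes gave log2 differences of -0.02 in KO cells (adjusted p = 1) and 2.33 in WT cells (SE 0.72, adjusted p = 0.0901), neither of them called. Phlda3, which competes with the kinase AKT for membrane lipids, lies at chr1:135766119-135769136 on the plus strand. It had 0 reads among 66034587 in the 12 libraries, which allows a level of up to 0.0454 CPM; this limit covers counting error only.

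**Figure D2:**
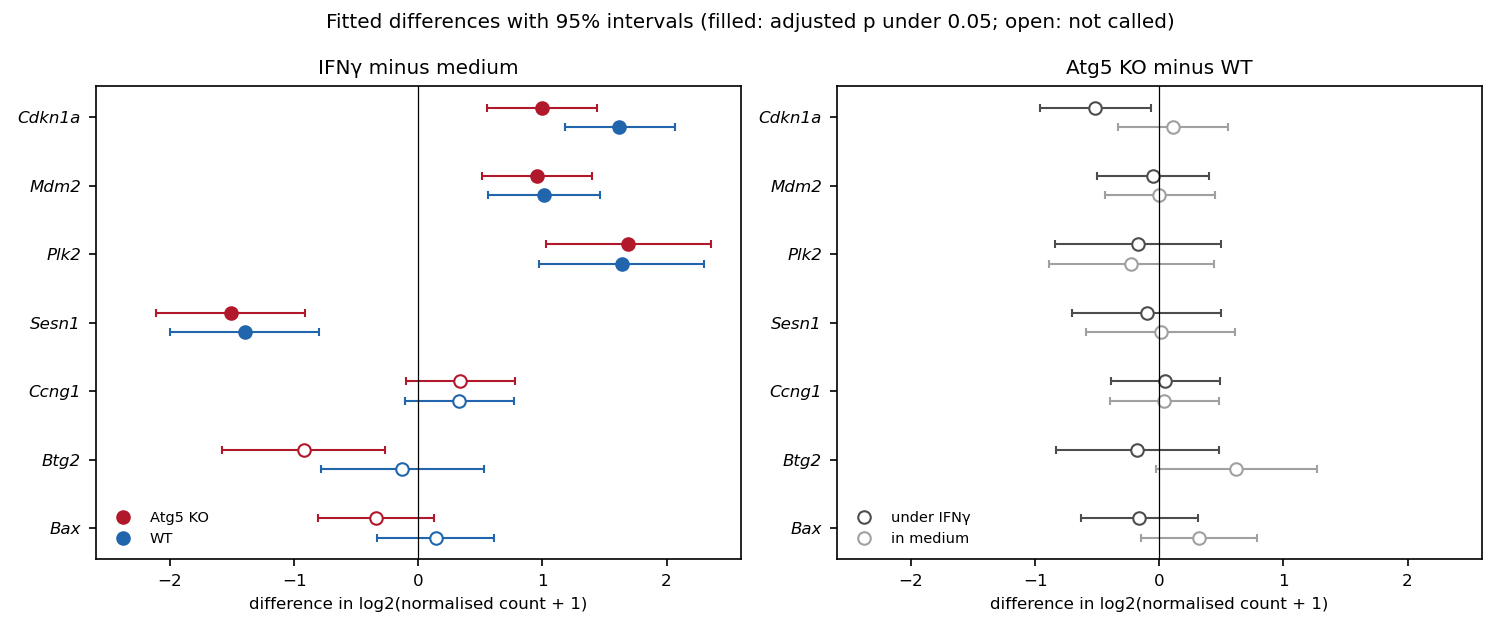
Fitted differences of the 7 tested genes on the log2 scale, with 95% intervals. The left panel shows IFNγ minus medium, where Cdkn1a, Mdm2, Plk2 and Sesn1 are filled (called) in KO and WT cells; the right panel shows KO minus WT, where no point is filled and the Cdkn1a interval under IFNγ, -0.96 to -0.07, is the one interval that leaves out 0.

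The size of the response varied from library to library. In WT cells, replicate C had the smallest difference from the medium mean for Cdkn1a (1.30, against 1.94 and 1.63 in A and B), Mdm2 (0.56, against 1.23 and 1.24), Plk2 (1.09, against 1.81 and 2.01), Sesn1 (-1.22, against -1.45 and -1.53) and Ccng1 (0.20, against 0.28 and 0.50). In KO cells the library with the smallest difference was A for Cdkn1a (0.67, against 1.24 and 1.08 in B and C), Mdm2 (0.88, against 1.08 and 0.91) and Plk2 (1.45, against 1.48 and 2.15), and B for Sesn1 (-1.10, against -1.86 and -1.57 in A and C). All the differences of these 4 genes had the same sign within each gene. Leaving out replicate C of the treated WT cells gave 1.78 for Cdkn1a, 1.23 for Mdm2, 1.91 for Plk2 and -1.49 for Sesn1, each still called.

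**Figure D3:**
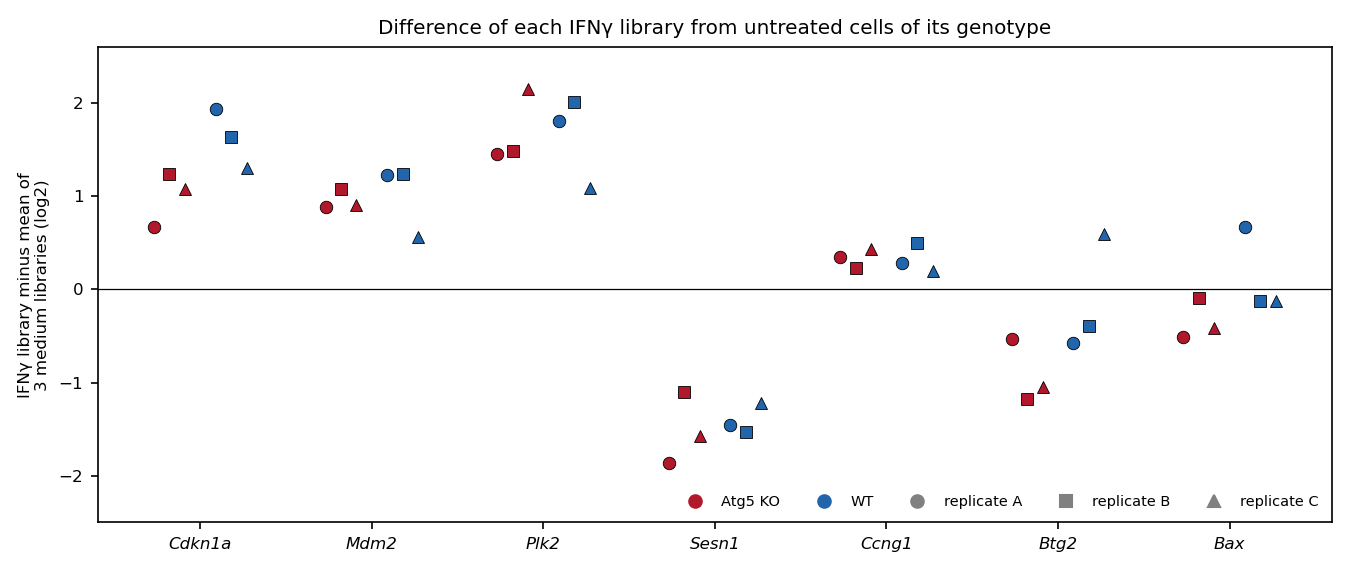
Difference of each IFNγ library from the mean of the 3 medium libraries of its genotype, on the log2 scale, for the 7 tested genes; colours are genotypes and shapes are replicates. The WT triangle (replicate C) is the smallest WT difference for Cdkn1a, Mdm2, Plk2, Sesn1 and Ccng1, and is of the opposite sign to A and B for Btg2.

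None of the 7 tested genes was called between KO and WT cells. In medium, 0 of 7 genes were called between KO and WT cells (0 at an unadjusted p under 0.05), against 0.428% of all genes tested. Under IFNγ, 0 of 7 were called (1 at an unadjusted p under 0.05, Cdkn1a), against 0.492% of all genes tested. Of all 10981 genes tested, 907 in medium and 1317 under IFNγ had an unadjusted limma p under 0.05. The difference between the responses of KO and WT cells was called for 0 of 7 (1 at an unadjusted p under 0.05, again Cdkn1a) and for 0% of all genes tested, with 792 of those genes at an unadjusted p under 0.05 and 2 called by voom. These comparisons share libraries with one another and with the comparisons above.

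In medium, the KO minus WT differences of the genes that changed with IFNγ were 0.11 for Cdkn1a (95% interval -0.33 to 0.55), 0.00 for Mdm2 (-0.44 to 0.45), -0.23 for Plk2 (-0.89 to 0.44) and 0.01 for Sesn1 (-0.59 to 0.61). Differences inside these intervals could not be told from 0 with 3 libraries a group. Btg2 was 0.62 higher in KO than in WT cells in medium (95% interval -0.03 to 1.27, unadjusted p = 0.0618, limma adjusted p = 0.638), and its medium ranges did not overlap between the genotypes, as for 13.6% of all genes tested, but it was not called. The Bax difference in medium was 0.32 (-0.15 to 0.79, adjusted p = 0.792) and that of Ccng1 was 0.04 (-0.40 to 0.48).

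Under IFNγ, Cdkn1a was 0.52 lower in KO cells than in WT cells (95% interval -0.96 to -0.07, unadjusted p = 0.0246, limma adjusted p = 0.33), and the ranges of 9.68 to 10.26 in KO cells and 10.21 to 10.84 in WT cells overlapped. The response of Cdkn1a was 0.63 smaller in KO than in WT cells on the log2 scale (95% interval of the difference -1.25 to 0, unadjusted p = 0.0493, adjusted p = 0.69). Neither was called. The response differed between genotypes by -0.05 for Mdm2 (-0.69 to 0.58), 0.06 for Plk2 (-0.89 to 1.00), -0.11 for Sesn1 (-0.96 to 0.74) and -0.80 for Btg2 (-1.72 to 0.13, adjusted p = 0.736). Bax differed by -0.48 (-1.14 to 0.19), and Ccng1 by 0.01 (-0.62 to 0.63).

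Ordered by group mean, Cdkn1a and Mdm2 ran from WT cells with IFNγ through KO cells with IFNγ and KO cells in medium to WT cells in medium, and Plk2 had the last pair of groups exchanged. Sesn1 ran in the opposite sense, from KO cells in medium and WT cells in medium to WT cells and then KO cells with IFNγ. For these 4 genes and Ccng1, the only neighbouring groups whose ranges did not overlap were those on either side of the step between IFNγ and medium. Among all genes tested, 4.6% had all 6 treated libraries above all 6 medium libraries, and 2.5% had them below. For Bax all neighbouring groups overlapped.

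The p53 gene itself was not called in any of the 5 comparisons. Trp53, at chr11:69580359-69591873, stood at 9.57, 9.78 and 10.26 in KO cells with IFNγ and at 9.51, 9.58 and 9.69 in KO cells in medium. In WT cells it stood at 9.78, 9.72 and 9.21 with IFNγ and at 9.39, 9.21 and 8.71 in medium. The IFNγ difference was 0.28 in KO cells (limma adjusted p = 0.546) and 0.46 in WT cells (95% interval 0.01 to 0.92, adjusted p = 0.242). In medium Trp53 was 0.49 higher in KO than in WT cells (95% interval 0.03 to 0.95, unadjusted p = 0.0386, adjusted p = 0.583). Its ranges of 9.51 to 9.69 in KO cells and 8.71 to 9.39 in WT cells did not overlap, as for 13.6% of all genes tested. Under IFNγ the difference between KO and WT cells was 0.30 (adjusted p = 0.626). Mdm4, the partner of Mdm2 in holding p53 in check, differed by 0.46 in KO cells (adjusted p = 0.302) and by -0.17 in WT cells (adjusted p = 0.75). Of 16 genes for p53 and its regulators 0 were called in KO cells (2 at an unadjusted p under 0.05; 0 by voom; median log2 difference 0.09), against 4.67% higher and 2.69% lower of all genes. In WT cells 0 were called higher and 1 lower (5 at an unadjusted p under 0.05; median -0.08), against 4.53% and 2.12% of all genes. Of all 10981 genes tested, 2119 in KO cells and 2184 in WT cells had an unadjusted limma p under 0.05. Without treated KO replicate B the KO count of the 16 genes was 1 higher. In WT cells it was 1 higher and 1 lower without treated replicate C and 1 higher and 0 lower without medium replicate A. The gene called lower in WT cells was Chek2, a kinase that signals DNA breaks to p53, at -0.93 in WT cells (SE 0.27, adjusted p = 0.0483). Its call was lost in 7 of 16 alternatives, with an adjusted p of 0.147 and 0.208 without treated WT replicates A and B and of 0.178 and 0.157 without WT medium replicates A and B. Usp7, a deubiquitinase that acts on Mdm2 and p53 and is named here after its values were seen, was not called between treated genotypes (adjusted p = 0.0514). It was called higher in KO than in WT cells in 5 of 16 alternatives, at 1.08 without treated KO replicate B (adjusted p = 0.0141) and at 0.83 to 0.87 with a pseudocount of 8 (0.039), quantile normalisation (0.047), voom (0.0368) or a block for the replicate letter (0.0315).

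Most of the other p53 targets were not called. Of 29 tested among 36 listed, 1 was higher and 1 lower in KO cells, and 1 was higher and 0 were lower in WT cells; the medians were 0.02 and -0.14. The shares of all genes were 4.67% higher and 2.69% lower in KO cells and 4.53% and 2.12% in WT cells. The KO counts were 0 and 0 without treated replicate A or without medium replicate A or C, 0 higher and 1 lower without treated replicate C and 1 higher and 0 lower without medium replicate B. The WT counts were 1 higher and 1 lower without treated replicate A or C. The one called higher in both genotypes was Fas, a death receptor. Its reads in replicates A, B and C were 15, 14 and 17 in KO cells with IFNγ and 1, 4 and 1 in medium, and 31, 58 and 15 in WT cells with IFNγ and 4, 1 and 2 in medium. Fas rose by 2.46 in KO cells (SE 0.63, limma adjusted p = 0.0189) and by 3.71 in WT cells (SE 0.63, adjusted p = 0.00065), and the difference between these responses was not called (-1.24, adjusted p = 0.795). The KO call was lost in 6 of 15 alternatives, with an adjusted p of 0.0886 and 0.0502 without treated KO replicates A and C, 0.0531 and 0.0601 without KO medium replicates A and C, 0.0507 after quantile normalisation and 0.124 by voom. Dcxr, a sugar reductase, fell by 1.49 in KO cells (SE 0.43, adjusted p = 0.038), and that call was lost in 9 of 16 alternatives, including the omission of treated KO replicate A (adjusted p = 0.194) or C (0.0568) and of KO medium replicate A (0.0841), B (0.139) or C (0.0611).

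Among relatives of the 9 genes, 0 of 14 tested were called in KO cells (2 at an unadjusted p under 0.05; 0 by voom) and 1 was called higher in WT cells, against 4.67% and 4.53% of all genes called higher. In KO cells 2119 of all 10981 genes tested had an unadjusted limma p under 0.05. Without KO medium replicate C the KO count of the relatives was 1 higher. Without treated replicate C their WT counts were 2 higher and 1 lower. The gene called in WT cells was Bak1, which like Bax forms pores in the mitochondrial membrane. Bak1 rose by 1.23 in WT cells (SE 0.20, limma adjusted p = 0.000359), where the reads were 347, 411 and 280 with IFNγ and 244, 229 and 149 in medium. It stayed called in all 16 alternatives, with an adjusted p of at most 0.00463.

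In the BCL-2 family, which sets the threshold for mitochondrial apoptosis, 4 of 14 tested genes were higher and 1 was lower in KO cells, and 3 were higher and 0 lower in WT cells. The lists share some genes: Bak1, given above among the relatives, is in this list too and is among its WT calls. The shares of all genes were 4.67% higher and 2.69% lower in KO cells and 4.53% and 2.12% in WT cells. The medians were 0.53 and 0.64, against 0.01 and -0.02 for all genes. Bcl2, the founding survival gene of the family, rose by 1.61 in KO cells (SE 0.29, limma adjusted p = 0.00126) and by 1.24 in WT cells (SE 0.29, adjusted p = 0.0121). Bcl2a1b, one of a group of near-identical survival genes whose reads may be split among copies, rose by 3.13 in KO cells (SE 0.54, adjusted p = 0.000679) and by 1.82 in WT cells (SE 0.54, adjusted p = 0.0487). Its copy Bcl2a1d rose by 2.68 in KO cells (adjusted p = 0.0117). Bmf, a death-promoting member, fell by 1.59 in KO cells (SE 0.39, adjusted p = 0.0144). In WT cells Bcl2a1d had means of 4.12 with IFNγ and 2.2 in medium, not called (adjusted p = 0.0823). Bmf had means of 4.45 and 5.69 in WT cells, also not called (0.065). Both were called in WT cells without treated replicate C (0.0204 and 0.0457). The difference in response between genotypes was called for 0 of the 14 genes. The fifth gene called in KO cells, Bid, is named here after its value was seen: it rose by 0.78 (adjusted p = 0.0273). The Bid call was lost on leaving out any single library of the 6 KO libraries (adjusted p 0.051 to 0.0937). It was also lost after quantile normalisation (0.0518) and by voom (0.057). The WT counts were 6 higher and 1 lower without replicate C of the treated cells, and 1 higher and 0 lower without replicate B of the treated or of the medium cells. The KO counts were 3 higher and 0 lower without treated replicate A and 2 higher and 1 lower without treated replicate B. Leaving out single libraries ended the WT calls of Bcl2 (0.101 and 0.0698 without replicate B of treated or of medium cells) and of Bcl2a1b (0.066 to 0.246, in each case but that of treated replicate C). It ended the KO calls of Bcl2a1d (0.0552 without treated replicate B) and Bmf (0.0797 without treated replicate A). Over all 16 alternatives the WT call of Bcl2a1b was lost in 12. These included no filter on low values (0.121), voom (0.114), quantile normalisation (0.0538) and median centring (0.0525).

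Of 22 genes of the G1 and S phases, which p21 restrains, 0 were called in KO cells (3 at an unadjusted p under 0.05; 0 by voom) and 1 was higher and 1 lower in WT cells, with medians of -0.03 and -0.06. The shares of all genes were 4.67% higher and 2.69% lower in KO cells and 4.53% and 2.12% in WT cells. In KO cells 2119 of all 10981 genes tested had an unadjusted limma p under 0.05. Without treated KO replicate B the KO count of the 22 genes was 1 higher, Mki67. The WT counts were 1 higher and 2 lower without treated replicate C, 2 higher and 1 lower without medium replicate A, and 0 higher and 1 lower without treated replicate A or B or medium replicate B or C. Ccnd1, which encodes cyclin D1, rose by 0.78 in WT cells (SE 0.22, limma adjusted p = 0.033). The Ccnd1 call was lost without treated replicate A (0.167) or B (0.159) or medium replicate B (0.104) or C (0.141). It was also lost with no filter (0.066), after quantile normalisation (0.0505) and with only the groups compared (0.0598). Mki67, the gene of the proliferation antigen Ki-67, fell by 1.31 in WT cells (SE 0.28, adjusted p = 0.00519). Its reads in replicates A, B and C were 1092, 863 and 2042 in KO cells with IFNγ and 321, 1156 and 636 in medium, and 255, 436 and 599 in WT cells with IFNγ and 1611, 1586 and 1091 in medium. Under IFNγ Mki67 was 1.31 higher in KO than in WT cells (SE 0.28, adjusted p = 0.0384), the one difference between genotypes called in the pathway lists with all 12 libraries and the settings given above. That call was lost without treated KO replicate A (0.170) or C (0.185), or without treated WT replicate A (0.183) or B (0.107). It was also lost with no filter (0.0678), with only the groups compared (0.146) and without both treated C libraries (0.0531). The difference between its responses was 2.10 (SE 0.39, adjusted p = 0.106), not called. It was called in 4 alternatives: at 2.39 without treated KO replicate B (adjusted p = 0.0303), 2.40 without treated WT replicate C (0.031), 2.19 without both treated C libraries (0.0466) and 2.08 by voom (0.0471).

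**Figure D4:**
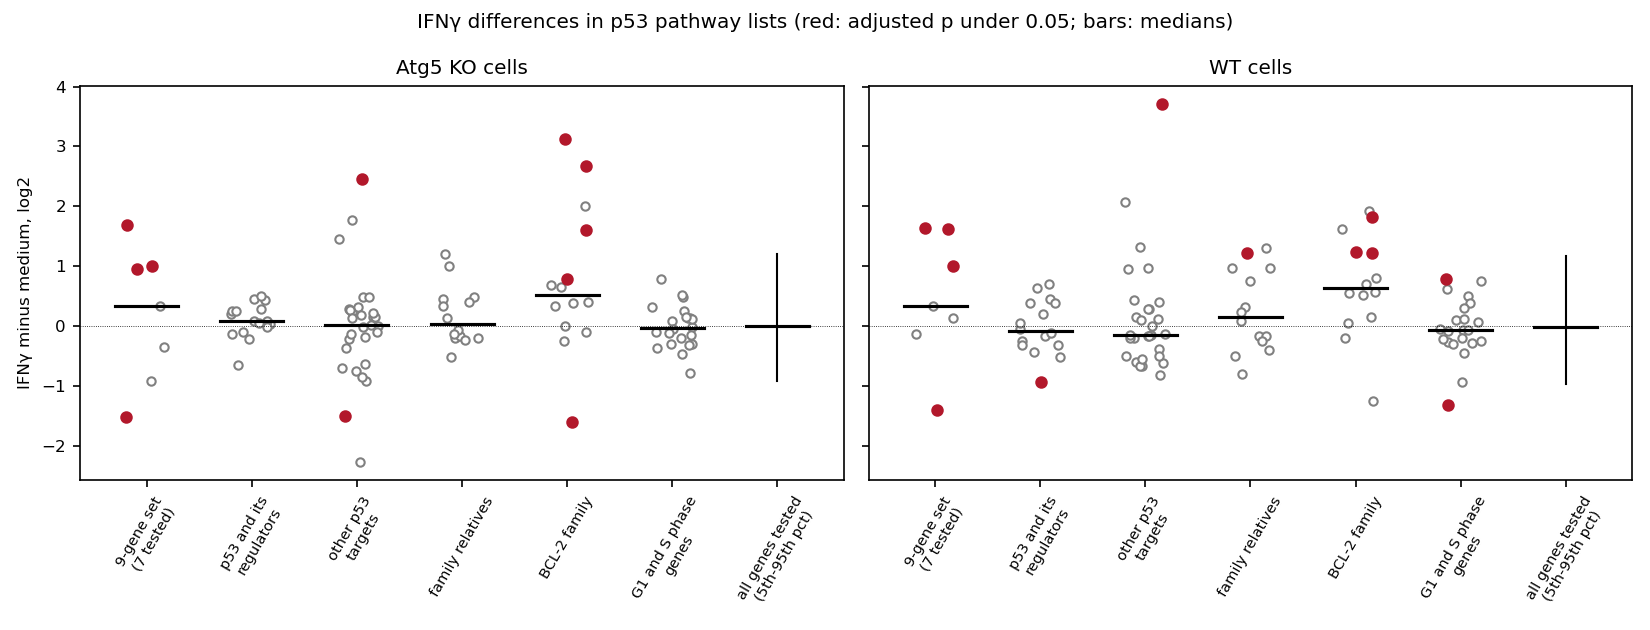
IFNγ minus medium on the log2 scale for each tested gene of the 9-gene set and of 5 related lists, in KO cells (left) and WT cells (right); red points are called, horizontal bars are medians, and the last column gives the median and the range from the 5th to the 95th percentile of all 10981 genes. The BCL-2 family has medians of 0.53 and 0.64, while the other related lists lie between -0.14 and 0.15.

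The genes whose levels ran most nearly parallel to 3 of the 9 were sought by Pearson correlation over the 12 libraries, which fall into a treated and a medium cluster; the correlations within the 6 libraries of each are given beside it. They are descriptions, since all libraries share the treatment step. For Cdkn1a the first were Tmbim6, an endoplasmic reticulum membrane protein (r = 0.981; 0.96 in treated and 0.78 in medium libraries), and B2m, the light chain of class I MHC (0.978; 0.91 and 0.72). Cd47, the "don't eat me" signal (0.976; 0.93 and 0.70), Rhou (0.973; 0.89 and 0.69) and Stat2 (0.968; 0.86 and 0.69) came next. For Plk2 they were Cd300lf (0.951; 0.63 and 0.76), the Fc receptor Fcgr1 (0.941; 0.48 and 0.78), Scpep1 (0.940; 0.35 and 0.89), Ifit2 (0.940; 0.58 and 0.78) and the inflammatory caspase Casp4 (0.931; 0.85 and 0.32). For Sesn1 they were Sptssa (0.981; 0.76 and 0.87), Gstm1 (0.978; 0.94 and 0.67), Cln6 (0.964; 0.87 and 0.45), Camk1 (0.961; 0.71 and 0.67) and Hdac5 (0.955; 0.56 and 0.83). Within the treated libraries the first Cdkn1a genes were at 0.86 to 0.96 and the first Plk2 genes at 0.35 to 0.85. Within the medium libraries the Cdkn1a genes were at 0.69 to 0.78 and the Plk2 genes at 0.32 to 0.89. Each of these sets of 6 libraries holds both genotypes. Between Cdkn1a and Mdm2 the correlation was 0.60 in the treated libraries and 0.86 in the medium libraries. Plk2 ran against both in medium: its correlation with Cdkn1a was 0.54 in treated and -0.51 in medium libraries. With Mdm2 it was 0.68 and -0.41.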

How the data were processed

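Gentle lysis and removal of nuclei gave cytosolic RNA, from which poly-A transcripts were selected and primed with barcoded oligo-dT, per the labels' protocols. Replicates were prepared independently, and the design text says those of a condition were pooled into a single library; the deposited table has 1 column per replicate. The authors deposited log2 values; the submitters' processing notes name STAR, HTSeq 0.6.1, DESeq2 1.10.1, FastQC 0.11.2 and GRCm38, and the annotation release and strand setting are not given in the sources used here. On this scale 1 was added to each size-factor-normalised count before taking log2; undoing this gave whole reads for 100% of values, with a tolerance of 0.01 reads. The filter kept 10981 of 46078 genes, those reaching a log2 value of 3 in 3 or more libraries.

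Differences were tested with limma 3.58.1 in R 4.3.3: 1 mean per group over all 12 libraries, empirical Bayes moderation with a mean-variance trend on 8 residual degrees of freedom, two-sided, Benjamini-Hochberg adjustment over all kept genes. The script was tested on simulated data. p-values measure the spread between these replicates. GENCODE M21 gave positions; it places genes of other names over Cdkn1a, Sesn1 and Bax, none of which is in the table, and reads of overlapping genes cannot be told apart without strand. The members and lists were chosen with earlier results of these data known. Besides the members, the text names Trp53, Mdm4, up to 4 called genes per list and comparison with the largest change, and the 5 genes most correlated with Cdkn1a, Plk2 and Sesn1 among genes with a mean log2 value of at least 5. Alternatives were other filters, pseudocounts, scalings, voom, fewer groups, a replicate block and fewer libraries.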

Additional observations from a re-analysis of the deposited data

How the results depend on the processing

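The numbers of members called stood within 1.5 times of the main count in all 84 alternatives. The 4 members called with IFNγ kept their call in each of the 16 alternatives of each genotype, the highest adjusted p being 0.049 for Mdm2 in KO cells and 0.0445 for Mdm2 in WT cells. The count of all genes called moved more: with both IFNγ libraries of letter C left out it was 1119 against 730 for IFNγ in WT cells, 18 against 54 between treated genotypes and 3 against 0 for the difference in response. Between treated genotypes it was 32 with no filter, 86 with a pseudocount of 8, 87 by voom (28 higher and 59 lower, against 23 and 31) and 29 with only the groups compared, which gave 23 against 47 in medium. For the difference in response it was 1 with a pseudocount of 0.5 and 2 by voom. Leaving out single libraries gave 424 to 1084 for IFNγ in WT cells, 513 to 703 in KO cells (808 in full), 24 to 39 between genotypes in medium, 23 to 83 under IFNγ and 0 to 3 for the difference in response. Libraries with the same replicate letter deviated together only weakly: 2 of 18 same-letter pairs correlated above 0.1, 16 of 18 had a correlation above 0 (9 of 36 other-letter pairs did), and 9 of 12 libraries correlated best with their own letter, which is a hint of pairing from the data and not from the design. Deviations were taken from group means, so same-letter correlations above 0 push other-letter ones below 0, and the 2 counts are not independent. The largest same-letter correlation, 0.219, was between the IFNγ libraries of letter C. With the replicate block the counts of all genes called were 89 between treated genotypes and 1 for the difference in response. No member call changed.

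Every sign change was in a difference that was not called. Single libraries left out gave -0.13 to 0.27 for Bax and -0.48 to 0.10 for Btg2 with IFNγ in WT cells. In medium, KO minus WT ran over -0.03 to 0.25 for Cdkn1a, -0.46 to 0.09 for Plk2, -0.24 to 0.23 for Sesn1 and -0.01 to 0.08 for Ccng1, and Sesn1 was -0.05 by voom. Under IFNγ it ran over -0.27 to 0.07 for Mdm2, -0.44 to 0.02 for Plk2, -0.30 to 0.08 for Sesn1, -0.01 to 0.14 for Ccng1, -0.29 to 0.11 for Bax and -0.40 to 0.18 for Btg2, and without both IFNγ libraries of letter C it was 0.02 for Sesn1, -0.06 for Ccng1, 0.24 for Btg2 and -0.07 for Trp53. The difference in response ran over -0.28 to 0.06 for Mdm2, -0.26 to 0.29 for Plk2, -0.33 to 0.14 for Sesn1, -0.06 to 0.09 for Ccng1 and -0.38 to 0.01 for Trp53. There, Plk2 was -0.01 after quantile normalisation, -0.03 by voom and -0.44 without both letter C libraries, Ccng1 was -0.01 after quantile normalisation and -0.10 without them, and Sesn1 was 0.01 without them. The causes were not tested. At this depth Trp53inp1 and Phlda3 could not be followed.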

Other observations

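Bak1 stood at 7.80 to 8.05 in KO cells in medium and had a mean of 7.41 in WT cells in medium. Its response to IFNγ was 0.90 smaller in KO than in WT cells on the log2 scale (SE 0.28, unadjusted p = 0.00479, limma adjusted p = 0.54), which was not called. Within the 6 treated libraries Mdm2 and Btg2 had a correlation of -0.88, and within the 6 medium libraries it was 0, a description over libraries that share their treatment. The pair is named after its value was seen, as the most negative among the tested genes in the treated libraries. Treated WT replicate C had the lowest treated Mdm2 (8.34) and the highest treated Btg2 (7.35). The correlation without that library was not computed.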
